A study of Mus musculus with 4 samples.

Results

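Messenger RNA of 7 caspases and of the caspase inhibitor Xiap was measured in the hippocampus of female mice after global cerebral ischemia (GCI). The 8 genes (Casp1, Casp2, Casp4, Casp6, Casp8, Casp9, Casp12 and Xiap) were taken by symbol from the 22609 gene symbols counted in each library. All 8 were listed in every library, and 7 of them passed the filter on low counts; Casp4 did not. Each group held 2 RNA-seq libraries. FLOX+GCI mice carry the floxed Cyp19a1 gene, which encodes aromatase, and served as controls, and their libraries are also called the controls here. FBN-ARO-KO+GCI mice carry the same floxed gene together with Cre recombinase driven by the CaMKIIα promoter, which deletes Cyp19a1 in excitatory neurons of the forebrain and leaves it in other cells; their libraries are also called the knockouts. Mice of both groups were 3 to 5 months old, had been ovariectomized 1 week earlier, underwent 20 min of common carotid artery occlusion, and gave their hippocampi after 24 h of reperfusion. Sham-operated animals are not among these libraries, so the values compare 2 genotypes after ischemia and give no change from the uninjured state.

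Caspases are cysteine proteases that are made as inactive precursors and cut their targets after aspartate. Initiator caspases are switched on inside adaptor complexes, executioner caspases then dismantle the cell, and the inflammatory caspases mature interleukins and open pores in the plasma membrane. Xiap binds and blocks some, not all, of the initiator and executioner caspases. Neuronal death in the hippocampus after ischemia is a classical setting in which caspases are studied.

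All 7 caspases share a short active-site stretch around the catalytic cysteine, and the coding bases of this stretch are shown because they are the feature that joins the family. The sequences were read from GENCODE M1 transcripts on build NCBIM37 (mm9), all on the plus strand, and run 5′ to 3′. Capitals mark the 5 codons of the core (glutamine, alanine, the catalytic cysteine, a variable residue and glycine), with 15 bases of coding sequence on each side. The stretch of Casp8 lies within 1 exon at chr1:58901442-58901486. That of the other 6 is joined across 2 neighbouring exons, and its genomic span therefore includes an intron: chr6:42226754-42229789 for Casp2, chr4:141363147-141367467 for Casp9, chr3:129613599-129615062 for Casp6, chr9:5303744-5304200 for Casp1, chr9:5324928-5327189 for Casp4 and chr9:5353838-5354547 for Casp12.
Casp2: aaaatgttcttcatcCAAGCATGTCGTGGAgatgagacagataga
Casp8: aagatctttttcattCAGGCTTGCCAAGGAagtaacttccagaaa
Casp9: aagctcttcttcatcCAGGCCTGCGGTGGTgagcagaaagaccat
Casp6: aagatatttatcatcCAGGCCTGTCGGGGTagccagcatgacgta
Casp1: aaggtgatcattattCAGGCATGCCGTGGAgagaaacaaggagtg
Casp4: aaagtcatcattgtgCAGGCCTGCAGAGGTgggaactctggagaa
Casp12: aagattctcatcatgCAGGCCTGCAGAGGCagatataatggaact

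Casp4 and Casp12, which neighbour Casp1 on chromosome 9, shared 14 of the 15 core bases and 29 of the 45 bases shown. Casp2 and Casp4 shared 9 of 15 core bases and 22 of 45, the fewest of any pair over the 45 bases. No run of 50 bases in 1 of the 8 transcripts occurred in another of them. Runs of 50 bases with an exact copy elsewhere in the genome made up 5.05% of those of Casp8 (128 of 2536) and 2.83% of those of Xiap (192 of 6785), and none were found for the other 6 genes. Reads from such runs can be dropped as not unique. Exons of Casp9 overlap those of Cela2a on the opposite strand over 94 bases, and Cela2a was listed at 0 in all 4 libraries.

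The libraries held 24333396 to 33076795 counted reads, and levels are given as CPM, the count of a gene per 1000000 reads of the TMM-scaled library. A count of 3, taken as the floor of detection, was worth 0.0905 to 0.122 CPM. Cyp19a1 had 1 and 4 counts in the FLOX+GCI libraries against 2 in each FBN-ARO-KO+GCI library, which is too few to check the deletion in these libraries. Markers of hippocampal neurons were detected at a summed 12311 to 13318 CPM. Pearson correlations of log2 CPM were 0.990 and 0.992 within the groups and 0.986 to 0.992 between them. Libraries of a group differed by more than counting error, with a chi-square per degree of freedom of 10.5 in FLOX+GCI and 12.3 in FBN-ARO-KO+GCI. The sources used here do not say that the 2 libraries of a group came from separate mice, so every p-value measures the spread between these libraries, which may be technical.

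Per length of transcript, Xiap and Casp9 were the most abundant of the 8 messages, and Casp12 and Casp4 the least. On the scale of CPM per kilobase, averaged over the 4 libraries, Xiap reached 14.7 (range 12.4 to 18.8) and Casp9 10.6 (10.1 to 11.6), above the level of 63.8% and 55.1% of the 13897 genes tested that have a transcript length. Casp2 followed at 3.20 (3.13 to 3.29), Casp6 at 1.79 (1.45 to 2.20), Casp1 at 1.36 (0.846 to 1.87) and Casp8 at 1.03 (0.875 to 1.24). Casp12 at 0.219 (0.131 to 0.429) and Casp4 at 0.184 (0.0714 to 0.334) lay above only 3.08% and 2.40% of those genes. Neighbours in this order overlapped in range for Casp6 with Casp1, Casp1 with Casp8 and Casp12 with Casp4, so the order of these neighbours lay within the spread over libraries.

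**Figure D1:**
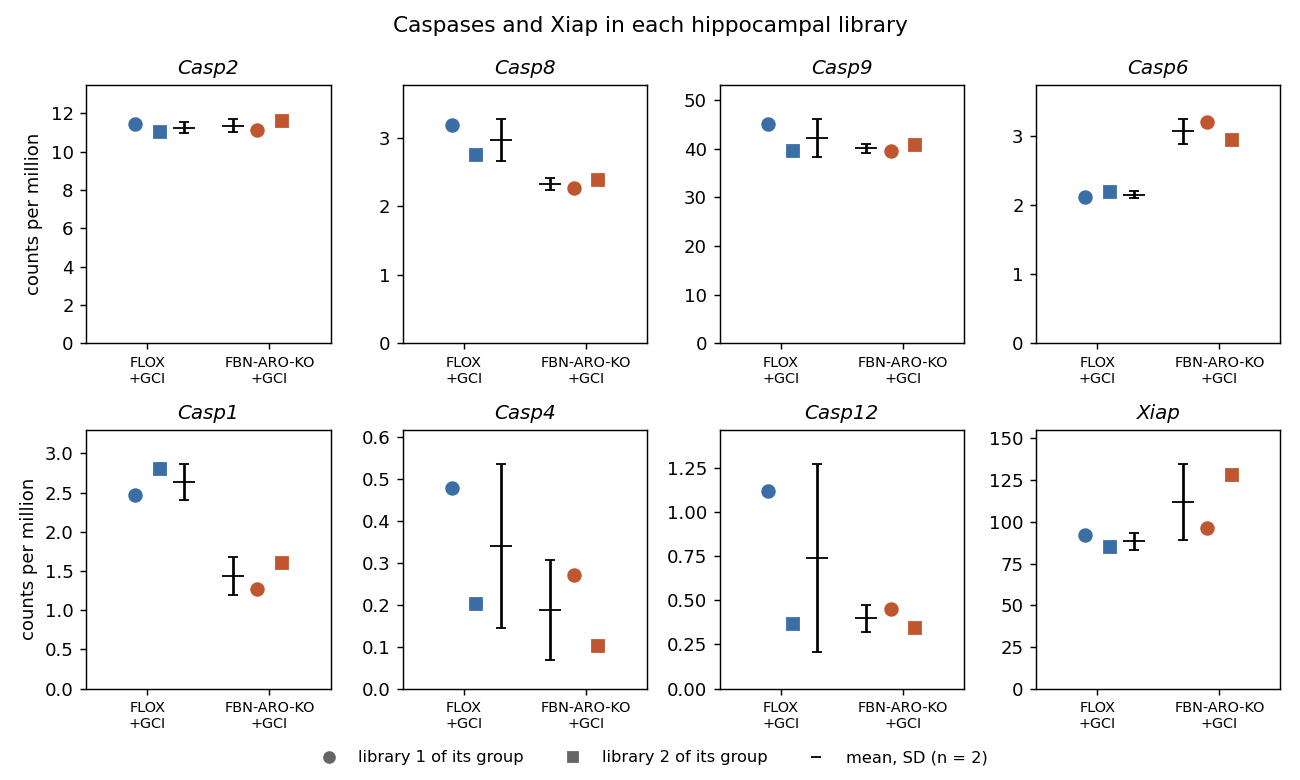
Normalised expression of each gene in CPM (vertical axes, each starting at 0) in the 2 FLOX+GCI libraries (blue) and the 2 FBN-ARO-KO+GCI libraries (orange), with black bars for the group mean and SD. The groups do not overlap for Casp8, Casp6, Casp1 and Xiap, while for Casp4 and Casp12 the first library of each group lies above the second.

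None of the 7 genes tested passed an adjusted p of 0.05 between FBN-ARO-KO+GCI and FLOX+GCI mice. At an unadjusted p under 0.05, Casp1 was lower and Xiap higher in FBN-ARO-KO+GCI mice. In edgeR's quasi-likelihood test, 0.0138% of the 14527 genes tested passed the adjusted threshold, and 16.5% had an unadjusted p under 0.05, of which those with a negative difference were 7.82% and those with a positive one 8.72% of all tested. With scaling by library totals alone the split of all genes was 10.1% lower and 6.63% higher. The 2 of 7 genes at an unadjusted p under 0.05 therefore stand beside a large share of the whole transcriptome at that level. Libraries of the 2 groups did not overlap for 4 of the 7 genes, against 51.8% of all genes tested (25.8% lower and 25.9% higher in FBN-ARO-KO+GCI), which is near the background. The median log2 fold change of the 7 genes was -0.08, and that of all genes tested was -0.01. As the tissue was measured in bulk, fewer cells of a type and less RNA per cell cannot be told apart in any of the values that follow.

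Among the initiator caspases, Casp2 and Casp9 overlapped between the genotypes. Casp2 (chr6:42214984-42232507), which is activated on a complex of Pidd1 and Cradd, gave 287 and 272 reads in the controls and 368 and 340 in the deeper knockout libraries. Scaled by library, the levels were 11.2 ± 0.296 CPM in FLOX+GCI mice and 11.4 ± 0.357 CPM in FBN-ARO-KO+GCI mice (SD, n = 2 each). The log2 fold change was 0.01 with a 95% interval of -0.29 to 0.31 (edgeR's quasi-likelihood test, adjusted p = 0.965). Casp9 (chr4:141349527-141371891), the protease of the apoptosome, was the most strongly counted caspase. Its reads numbered 1128 and 973 in the controls, or 45.0 and 39.5 CPM, and 1308 and 1192 in the knockouts, or 39.5 and 40.7 CPM. These ranges overlapped at 42.2 ± 3.92 and 40.1 ± 0.872 CPM, and the log2 fold change was -0.08 with a 95% interval of -0.30 to 0.15 (edgeR, adjusted p = 0.708).

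Casp8 (chr1:58852218-58904347), the initiator recruited to death receptors, lay lower in both FBN-ARO-KO+GCI libraries. Controls gave 3.19 and 2.76 CPM and knockouts 2.26 and 2.39 CPM, from 68 to 80 counts a library. The groups did not overlap, at 2.98 ± 0.307 and 2.33 ± 0.0899 CPM (SD, n = 2 each). The log2 fold change of -0.36 (SE 0.23) had a 95% interval of -0.89 to 0.18 that includes 0, with an adjusted p of 0.446 in edgeR's quasi-likelihood test.

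Casp6 (chr3:129604343-129617021), the executioner that cuts lamin A, lay higher in both FBN-ARO-KO+GCI libraries. Controls gave 53 and 54 counts (2.12 and 2.19 CPM), and knockouts 106 and 86 counts (3.20 and 2.94 CPM). The groups did not overlap, at 2.15 ± 0.0534 and 3.07 ± 0.185 CPM (SD, n = 2 each). Exact 95% Poisson intervals, which cover counting error only, were 1.58 to 2.77 and 1.65 to 2.86 CPM in the controls. In the knockouts they were 2.62 to 3.87 and 2.35 to 3.63 CPM, and so overlapped with those of the controls. The log2 fold change was 0.51 (SE 0.23, 95% interval -0.02 to 1.04), and edgeR's quasi-likelihood test gave an adjusted p of 0.314, with an unadjusted p also above 0.05. Casp6 kept its direction without each library in turn, at 0.44 to 0.57.

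Of the inflammatory caspases, Casp1 (chr9:5298517-5307265) was the one with an unadjusted p under 0.05. This protease of the inflammasome, which matures interleukin-1β and interleukin-18 and cuts gasdermin D, gave 62 and 69 reads in the controls and 42 and 47 in the knockouts, although the latter were sequenced more deeply. Scaled by library, the controls stood at 2.47 and 2.80 CPM and the knockouts at 1.27 and 1.60 CPM. Both FBN-ARO-KO+GCI libraries thus lay below both FLOX+GCI libraries, with means of 1.44 ± 0.239 and 2.64 ± 0.230 CPM (SD, n = 2 each). The fold was 0.544, and the log2 fold change was -0.88 (SE 0.27, 95% interval -1.51 to -0.24). After Benjamini-Hochberg adjustment over all genes, edgeR's quasi-likelihood test gave an adjusted p of 0.245. Without the first FBN-ARO-KO+GCI library the log2 fold change of Casp1 was -0.72 and its unadjusted p no longer under 0.05.

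Casp4 (chr9:5308828-5336783), the mouse caspase also called caspase-11, which binds bacterial lipopolysaccharide inside the cell, was close to the floor of detection. Controls gave 12 and 5 counts and knockouts 9 and 3. The exact 95% Poisson intervals of these counts, which cover counting error only, were 6.20 to 21.0, 1.62 to 11.7, 4.12 to 17.1 and 0.619 to 8.77. Fitted with every gene that had at least 1 count, its log2 fold change was -0.82 (SE 0.75, adjusted p = 0.647 in edgeR), and a difference was not detectable at this depth. Where it could be fitted with 1 library left out, its log2 fold change ran from -1.70 without the first FBN-ARO-KO+GCI library to -0.32 without the second. Casp12 (chr9:5345476-5373032), a rodent caspase placed at the endoplasmic reticulum, gave 28 and 9 counts in the controls and 15 and 10 in the knockouts. Its level of 1.12 CPM in the first FLOX+GCI library stood above the 0.365, 0.453 and 0.341 CPM of the other three, and the groups overlapped. The log2 fold change of Casp12 was -0.89 (SE 0.59, 95% interval -2.27 to 0.49; edgeR, adjusted p = 0.456). It was 0.13 without that first FLOX+GCI library and -1.48, with an unadjusted p under 0.05, without the second.

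Xiap (chrX:39412856-39462833), a ubiquitin ligase that binds some caspases and holds them inactive, was the member with the most reads. Controls gave 2304 and 2086 reads (91.9 and 84.6 CPM) and knockouts 3184 and 3754 reads (96.1 and 128 CPM). The groups did not overlap, at 88.3 ± 5.18 and 112 ± 22.7 CPM (SD, n = 2 each), but the first FBN-ARO-KO+GCI library lay close to the FLOX+GCI libraries. The fold was 1.27 and the log2 fold change 0.34 (SE 0.13, 95% interval 0.03 to 0.66), with an adjusted p of 0.274 in edgeR's quasi-likelihood test and an unadjusted p under 0.05. The log2 fold change of Xiap was 0.12 without the second FBN-ARO-KO+GCI library and 0.28 without the second FLOX+GCI library, and its unadjusted p was then above 0.05.

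**Figure D2:**
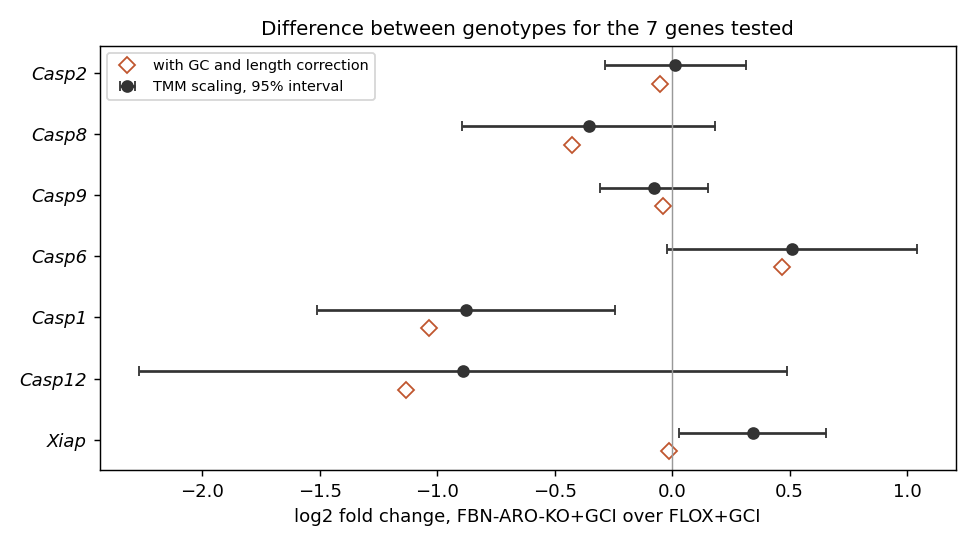
Log2 fold change of FBN-ARO-KO+GCI over FLOX+GCI (horizontal axis) for the 7 genes tested, as filled points with 95% intervals, and after correction for transcript GC content and length as open diamonds. The intervals of Casp1 and Xiap leave out 0, and the diamond of Xiap sits at -0.01 while that of Casp1 sits at -1.03.

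The difference in Xiap was of the size that other genes of its base composition also showed. Across the 13897 genes tested with a known transcript GC content, the log2 fold change was tied to GC content (Spearman's rho -0.55 across genes, which share their libraries and are not independent replicates). The Xiap transcript has 36.8% GC, and the trend at its GC content and length was 0.34. After that trend was removed from each library, the log2 fold change of Xiap was -0.01 (edgeR, adjusted p = 0.961). Casp12 (37.2% GC) and Casp1 (41.1% GC) lay against the trend, which stood at 0.28 and 0.15 for them. Their corrected log2 fold changes were -1.13 and -1.03, and Casp1 had an adjusted p of 0.405 in the corrected edgeR fit. For Casp2, Casp6, Casp8 and Casp9 the trend lay between -0.04 and 0.07, and the corrected values were -0.05, 0.47, -0.43 and -0.04. Casp1 was the 1 of 7 genes at an unadjusted p under 0.05 after this correction, against 10.1% of all genes, and again with the replicate number as a block, against 10.3%. In DESeq2 it was Xiap, at an adjusted p of 0.0947, against 10.4% of all genes with an unadjusted p under 0.05.

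**Figure D3:**
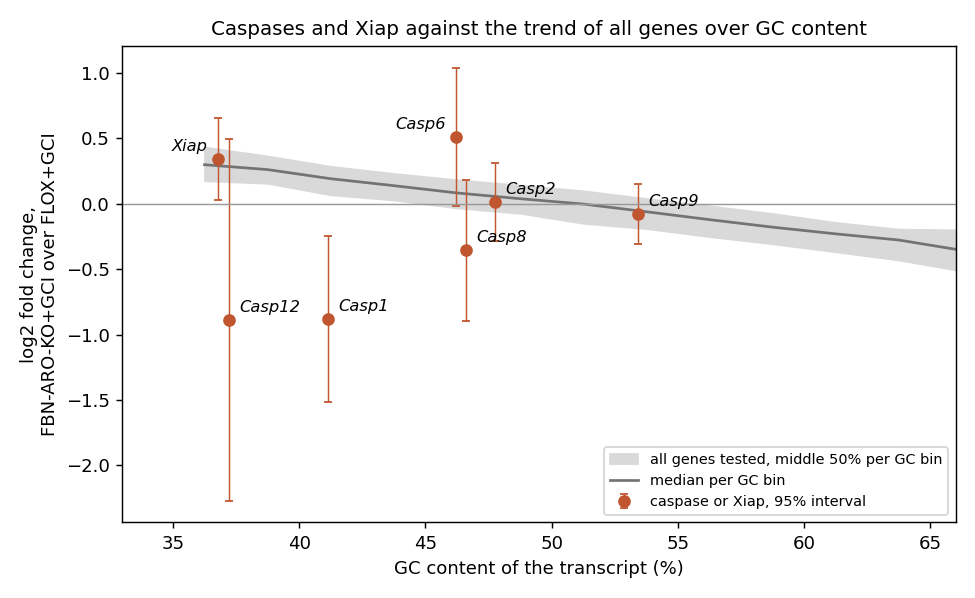
Log2 fold change of FBN-ARO-KO+GCI over FLOX+GCI (vertical axis) against the GC content of the transcript (horizontal axis, percent) for the 7 genes (orange, with 95% intervals) and for all genes tested in bins of GC content (grey line, median; band, middle 50%; bins of at least 20 genes). Xiap at 36.8% GC lies on the line, and Casp1 at 41.1% GC lies below the band.

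The partners of these proteins were read from 8 lists of 74 genes. Of the 63 that were tested, 14 had an unadjusted p under 0.05 (22.2%, against 16.5% of all genes tested). Of these, 7 had a positive and 7 a negative difference, and 1 passed the adjusted threshold. That gene was Xaf1, an interferon-induced protein known to antagonise Xiap. Controls gave 258 and 278 Xaf1 reads (10.3 and 11.3 CPM) and knockouts 80 and 68 (2.41 and 2.32 CPM). The message fell by 2.19 on the log2 scale (SE 0.17; edgeR's quasi-likelihood test, adjusted p = 0.0221), and the corrected log2 fold change was -2.24 (adjusted p = 0.0303). The adjusted p was 0.163 and 0.337 without the first and the second FBN-ARO-KO+GCI library, fits that leave 1 library in that group and assume that it varies like the others, while the log2 fold change stayed between -2.25 and -2.12. With the GC and length correction and the replicate number as a block together, it was 0.0725. None of the other 3 Xiap antagonists had an unadjusted p under 0.05. The nearest was Diablo, the mitochondrial protein that displaces caspases from Xiap, at a log2 fold change of -0.21 (edgeR, adjusted p = 0.391). The 4 had a median log2 fold change of -0.19.

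Of the 9 genes in the IAP family besides Xiap, 6 were tested. Against 16.5% of all genes tested, 1 of them had an unadjusted p under 0.05. This was Birc2, a ubiquitin ligase of tumor necrosis factor signaling, with 36.5 and 34.6 CPM against 41.4 and 43.2 CPM and a log2 fold change of 0.25 (edgeR, adjusted p = 0.255), which became 0.09 after the GC and length correction. Its paralog Birc3 was at -0.59 (SE 0.35, adjusted p = 0.417 in edgeR), and at -0.93 to -0.31 without each library in turn, nearest to 0 without the first FLOX+GCI library. The list had a median of -0.09.

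Upstream of Casp9, all 4 apoptosome genes were higher in both FBN-ARO-KO+GCI libraries than in either FLOX+GCI library, as were 25.9% of all genes tested. Their median log2 fold change was 0.26, and 0.17 after the GC and length correction. Apaf1, the scaffold that gathers Casp9, had 26.1 and 25.4 CPM against 29.0 and 33.6 CPM, a log2 fold change of 0.28 (SE 0.11; edgeR, adjusted p = 0.274). Cycs, cytochrome c, the mitochondrial signal for assembly, was at 0.40 (SE 0.19; adjusted p = 0.343 in edgeR), at 0.19 after the correction, and at 0.19 to 0.64 without each library in turn, lowest without the second FLOX+GCI library. Apaf1 was the 1 of 4 with an unadjusted p under 0.05, against 16.5% of all genes tested, and its corrected value was 0.14. Without the second FBN-ARO-KO+GCI library Apaf1 was at 0.17.

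Among the 13 genes of death domain complexes, which activate Casp8 and Casp2, 10 were tested. Of these, 3 had an unadjusted p under 0.05, against 16.5% of all genes tested. Cyld, a deubiquitinase that permits death signaling by Ripk1, stood higher in FBN-ARO-KO+GCI at 162 and 195 CPM against 146 and 138 CPM (log2 fold change 0.33, SE 0.10; edgeR, adjusted p = 0.245), and at 0.13 after the GC and length correction. Tnfrsf1a, the receptor for tumor necrosis factor, stood lower at 15.4 and 10.3 CPM against 17.4 and 28.8 CPM (log2 fold change -0.84, SE 0.27; edgeR, adjusted p = 0.248). Its 2 libraries within each group were themselves far apart. The log2 fold change of Tnfrsf1a was -1.16 without the first FLOX+GCI library (adjusted p = 0.00746), -0.43 without the second, -1.16 without the first FBN-ARO-KO+GCI library and -0.58 without the second (adjusted p = 0.844), and without either second library its unadjusted p was above 0.05. Cyld was at 0.19 without the second FBN-ARO-KO+GCI library, where its unadjusted p was also above 0.05, and at up to 0.45 without the others. Cradd, the adaptor of Casp2, had 7.30 and 7.42 CPM against 5.49 and 5.77 CPM, a log2 fold change of -0.39 (SE 0.16; edgeR, adjusted p = 0.288). The list had a median of -0.08.

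Of 13 inflammasome genes, which act with Casp1 and Casp4, 9 were tested. An unadjusted p under 0.05 was found for 1 of them, against 16.5% of all genes tested. Nek7, a kinase that binds Nlrp3, had 47.2 and 44.3 CPM in the controls and 52.3 and 66.4 CPM in the knockouts (log2 fold change 0.37, SE 0.12; edgeR, adjusted p = 0.248), 0.17 after the GC and length correction and 0.19 without the second FBN-ARO-KO+GCI library. Ninj1, which ruptures the membrane of dying cells, was at -0.33 (SE 0.15, adjusted p = 0.314 in edgeR), at -0.09 after that correction and at -0.18 without the second FBN-ARO-KO+GCI library. Pycard, the adaptor that recruits Casp1, had 2.23 and 2.56 CPM against 2.35 and 2.42 CPM, which overlap (adjusted p = 0.995 in edgeR). The median of the 9 was -0.11, and the 4 genes of the list that were not tested (Nlrp1a, Nlrp1b, Nlrc4 and Mefv) had at most 7 counts in any library.

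All 13 caspase substrates were tested, and 3 had an unadjusted p under 0.05, against 16.5% of all genes tested. Lmna, the lamin A that Casp6 cuts, had 36.7 and 31.7 CPM in the controls and 22.2 and 19.7 CPM in the knockouts. Its log2 fold change was -0.71 (SE 0.12; edgeR, adjusted p = 0.238). Its adjusted p was 0.0117 without the second FLOX+GCI library, 0.0555 without the first, 0.163 without the first FBN-ARO-KO+GCI library and 0.815 without the second. After the GC and length correction Lmna was at -0.52 (adjusted p = 0.361). Acin1, which condenses chromatin once cut, was at 0.24 (SE 0.08, adjusted p = 0.248 in edgeR), and at 0.15 without the first FBN-ARO-KO+GCI library. The remaining one, Pak2, named after its values were seen, was at 0.26. The median of the substrates was 0.02. Of 6 genes of endoplasmic reticulum stress and calpains, tied to Casp12, Hspa5 alone had an unadjusted p under 0.05, against 16.5% of all genes tested. This chaperone stood at 310 and 324 CPM in the controls and at 386 and 454 CPM in the knockouts (log2 fold change 0.41, SE 0.09; edgeR, adjusted p = 0.238). The stress sensor Ern1 was at 0.34 (SE 0.16, adjusted p = 0.325 in edgeR), and the list had a median of 0.01.

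Interferon response genes were read because Xaf1, Casp1 and Casp4 are known to be inducible by interferon. Of 12 listed, 11 were tested, 10 had a negative log2 fold change and 3 had an unadjusted p under 0.05, all lower in FBN-ARO-KO+GCI, where 7.82% of all genes tested were so. Usp18, a brake on interferon signaling, had 26 and 30 counts against 20 and 13 (log2 fold change -1.09, SE 0.37; edgeR, adjusted p = 0.250). Irf7, a transcription factor of the response, was at -0.79 (SE 0.31, adjusted p = 0.274 in edgeR) and at -1.12 to -0.54 without each library in turn, nearest to 0 without the second FBN-ARO-KO+GCI library. Ifit3, named after its values were seen, was at -0.66. None passed the adjusted threshold. The list had a median of -0.51, or -0.46 after the GC and length correction, where that of all genes tested was -0.01. A link of these genes to the values of Xaf1, Casp1 and Casp4 was not tested.

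**Figure D4:**
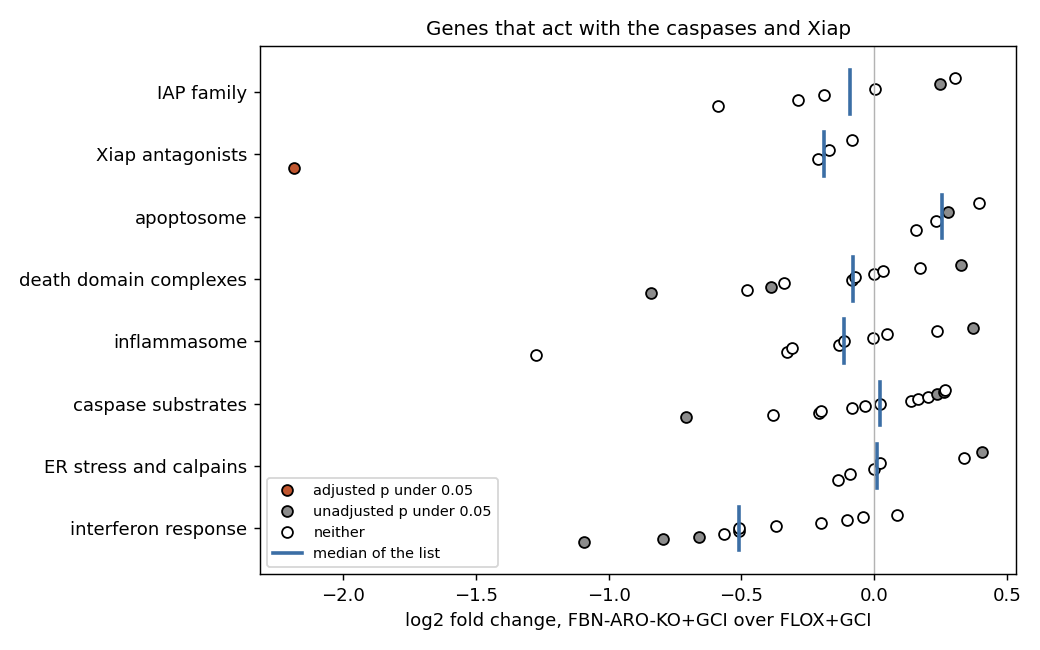
Log2 fold change of FBN-ARO-KO+GCI over FLOX+GCI (horizontal axis) for the 63 partner genes tested, 1 point a gene, in 8 lists (vertical axis), with blue bars for list medians. Xaf1 at -2.19 is the only filled orange point, for an adjusted p under 0.05, and the interferon response list has the lowest median, -0.51.

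Ratios of a partner to its caspase or to Xiap within a library do not depend on how libraries are scaled. For all 5 ratios the groups did not overlap, where 51.8% of single genes did not overlap either; the share among ratios of other gene pairs was not computed. With 2 libraries a group the two-sided exact permutation test gave 0.333 for each, the smallest p that this design allows. There were 0.112 and 0.133 Xaf1 reads per Xiap read in the controls and 0.0251 and 0.0181 in the knockouts, a difference of -2.52 in log2 ratio (-2.24 after the GC and length correction). Reads of Cflar, the inactive homolog that restrains Casp8, numbered 7.46 and 8.94 per Casp8 read in the controls and 11.8 and 11.7 in the knockouts, a difference of 0.52 (0.42 corrected). Cflar itself was at a log2 fold change of 0.17 (edgeR, adjusted p = 0.399), beside the -0.36 of Casp8.

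Pycard reads per Casp1 read were 0.903 and 0.913 in the controls and 1.86 and 1.51 in the knockouts, a difference of 0.88 in log2 ratio (1.07 corrected). In the controls the 56 and 63 reads of Pycard lay within the 95% Poisson intervals of Casp1 (47.5 to 79.5 and 53.7 to 87.3). The 2 genes thus did not differ there by more than counting error. In the knockouts 78 and 71 reads of Pycard stood against 42 and 47 of Casp1. Apaf1 reads per Casp9 read were 0.580 and 0.642 against 0.734 and 0.825, a difference of 0.35 (0.17 corrected). Cradd reads per Casp2 read were 0.638 and 0.673 against 0.495 and 0.497, a difference of -0.40 (-0.31 corrected).

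**Figure D5:**
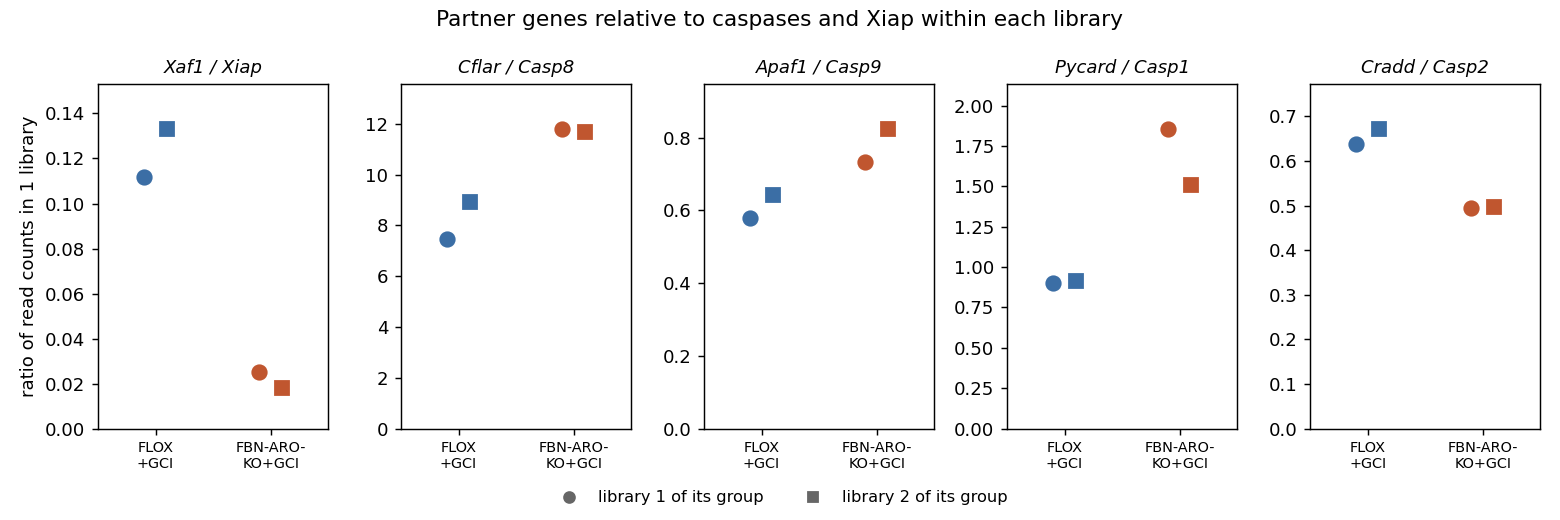
Reads of 5 partner genes divided by reads of the caspase or Xiap they act on (vertical axes, each starting at 0) in the 2 FLOX+GCI libraries (blue) and the 2 FBN-ARO-KO+GCI libraries (orange). The groups are apart in each panel, and Xaf1 per Xiap stands at 0.112 and 0.133 against 0.0251 and 0.0181.

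Caspases are expressed at unequal levels in the cell types of the brain, and marker lists were summed to show which of them moved alongside. Microglia, in which Casp1 is well known, had a marker sum of 516 and 499 CPM in the controls and 487 and 535 CPM in the knockouts, and none of the 10 markers had an unadjusted p under 0.05 in edgeR's quasi-likelihood test. The groups overlapped for this sum, and the part of microglial RNA in the values of Casp1 was not tested. Endothelial markers summed to 287 and 208 CPM in the controls and 240 and 173 CPM in the knockouts. The groups overlapped for this sum. Of the endothelial markers, 8 of 8 had a negative log2 fold change, with a median of -0.34 against -0.01 for all genes tested, or -0.28 after the GC and length correction. The groups did not overlap for 1 of the 8, against 51.8% of all genes tested. Cdh5, named after its values were seen, was the 1 at an unadjusted p under 0.05. Within each group the first library had more endothelial RNA than the second, as it had more Casp4 and Casp12; the part of endothelial RNA in their values was not tested. Neutrophil and blood markers, of which 6 of 8 were matched, summed to 4.51 and 3.49 CPM in the controls and 2.14 and 3.35 CPM in the knockouts. Hba-a1 was listed at 0 in all libraries. Reads without a unique alignment are not in the gene counts, and whether reads of Hba-a1 were among them was not examined. Its 0 therefore cannot show that hemoglobin RNA was absent. These sums rested mostly on Alas2, the only one tested, at 4.15 and 3.08 CPM against 1.84 and 2.29 CPM. Its log2 fold change was -0.81, with an unadjusted p under 0.05. S100a8 had 0 and 5 counts in the controls and 3 and 16 in the knockouts. S100a9 had 7 and 2 counts against 5 and 15, and Ngp and Camp had at most 2 in any library. Choroid plexus markers summed to 65.2 and 50.8 CPM against 44.0 and 49.4 CPM. Ttr, the 1 of 5 tested with an unadjusted p under 0.05, was at -0.98. Of those 5, 3 were higher and 2 lower in the knockouts, with a median log2 fold change of 0.09. Astrocyte markers summed to 5908 and 5996 CPM in the controls and 6121 and 6767 CPM in the knockouts. Aldh1l1 at -0.30 and Slc1a2 at 0.21 were the 2 of 8 with an unadjusted p under 0.05. Oligodendrocyte markers summed to 4012 and 4527 CPM in the controls and 4590 and 4742 CPM in the knockouts. Here Cldn11 at 0.23 and Mobp at 0.29 were the 2 of 8. Neuron markers summed to 12465 and 12311 CPM in the controls and 12637 and 13318 CPM in the knockouts. Of the 10 neuron markers, Rbfox3 at -0.17 and Snap25 at 0.20 were the 2. For all marker lists, the share of all genes tested at that p was 16.5%. The astrocyte, oligodendrocyte and neuron sums were thus higher in both knockout libraries, with list medians of 0.07, 0.16 and 0.05 in log2 fold change. After the GC and length correction these medians were 0.008, 0.10 and 0.04. Slc1a2, Snap25 and Rbfox3 then stood at 0.06, 0.08 and -5.9e-05, and Aldh1l1, Cldn11 and Mobp at -0.25, 0.25 and 0.33. The corrected edgeR fit left 1, 3 and 0 markers of these lists at an unadjusted p under 0.05, against 10.1% of all genes tested. The markers named here were picked after their values were seen, and their part in the values of the caspases and Xiap was not tested.

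For the 2 members with the largest differences, Casp12 and Casp1, the genes of most similar pattern were sought among all genes tested, by the root mean square difference of log2 CPM centred over the 4 libraries. Closest to Casp12 were Gimap1 (51 and 19 counts against 32 and 20; difference 0.0628), Glb1l2 (0.0686) and E130203B14Rik (0.0789). Each of them was likewise highest in the first FLOX+GCI library, and 4 genes lay within 0.1 of Casp12. Closest to Casp1 were Tom1 (10 and 11 counts against 6 and 7; difference 0.0229), Igf2bp2 (0.0278) and Cpxm2 (82 and 89 counts against 51 and 60; 0.0464), and 18 genes lay within 0.1. A match over 4 libraries describes these libraries only.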

How the data were processed

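Hippocampal RNA was sequenced on an Illumina HiSeq instrument from TruSeq libraries, and the authors deposited 1 table of read counts per gene symbol for each of the 4 libraries. Per the labels, reads were aligned to UCSC mm9 with TopHat2 2.0.8b and counted with HTSeq; the annotation release and the strand setting are not given in the sources used here, so reads from overlapping antisense genes cannot be told apart. The deposited counts were used unchanged, after the 5 counter lines that name no gene were left out (43.4% to 45.5% of all listed reads; reads without a unique alignment alone were 35.1% to 36.5% of all listed reads). FLOX+GCI libraries held 24774433 and 24333396 gene counts, against 33076795 and 30114003 for FBN-ARO-KO+GCI.

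Genes were filtered with filterByExpr at its minimum count of 10, scaled by TMM and tested across the whole table with edgeR 4.0.16 (quasi-likelihood test, genotype as the only term, Benjamini-Hochberg adjustment) in R 4.3.3. DESeq2 1.42.0, other scalings and filters, the replicate number as a block, leaving out each library, and an offset removing each library's trend over transcript GC content and length (natural splines with 5 degrees of freedom) were alternatives. GC content was known for 20118 of 22609 symbols, from GENCODE M1 on NCBIM37. CPM values use TMM-scaled totals; levels per kilobase use the transcript with the longest coding sequence. Scripts were tested on simulated data. The members and lists were chosen with earlier results of these data known. Named genes were the members, the genes of each list with an adjusted p under 0.05, its 2 genes with the smallest p, both genes of each ratio, and the 3 most similar genes of the 2 members with the largest differences. Septin4, Pidd1 and Sptan1 were matched through older symbols, and Ly6g and Hbb-bt were not analysed here. A further list of genes is not reported here.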

Additional observations from a re-analysis of the deposited data

How the results depend on the processing

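Of the 8 genes, Casp1, Casp6 and Casp8 kept their direction under every alternative that tested them, as did Casp4 in the fits that tested it, which were DESeq2, every gene with at least 1 count, and the fits without 1 library other than the first FLOX+GCI library. Genes at an unadjusted p under 0.05 among the 7 tested were 1 with DESeq2 (Xiap), 1 with the GC and length correction and 1 with that correction and the replicate block (Casp1 both times), and 1 to 2 without each library in turn. Genes with an adjusted p under 0.05 numbered 2 in all, 287 with DESeq2, 5 when every gene with at least 1 count was tested, and 0 to 193 without each library. In the partner lists, genes with an adjusted p under 0.05 numbered 1 in the main edgeR test and 2 with DESeq2 (Cyld and Hspa5). DESeq2 gave an adjusted p to 6240 genes only, of which its 287 were 4.6%. Of the caspases and Xiap, Casp9 and Xiap had one in DESeq2, at 0.802 and 0.0947. Casp1, Casp2, Casp4, Casp6, Casp8 and Casp12 had none, so DESeq2 could not call them at the adjusted threshold. DESeq2 also gave no adjusted p for Xaf1, which stood there at a log2 fold change of -2.18 with an unadjusted p of 1.8e-14. Genes at an unadjusted p under 0.05 numbered 2403, 1461 with the GC and length correction, and 831 to 2772 without each library, lowest without the second FBN-ARO-KO+GCI library. The log2 ratios of Xaf1 to Xiap, Apaf1 to Casp9, Pycard to Casp1 and Cradd to Casp2 moved under the correction to -2.24, 0.17, 1.07 and -0.31. Xiap turned to -0.011 under the correction and to -0.012 with the block as well. Casp2 turned to -0.051 in both of these fits and to -0.022 with library totals, and Pycard to 0.030, 0.032 with the block and 0.00045 with DESeq2. The cause was not tested. Without each library in turn, values that changed sign ranged over -0.017 to 0.043 for Casp2, -0.17 to 0.023 for Casp9, -1.48 to 0.13 for Casp12, -0.096 to 0.092 for Pycard, -1.29 to 0.10 for Gimap1, -1.38 to 0.30 for Glb1l2 and -1.22 to 0.063 for E130203B14Rik.

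The labels number the libraries but do not say what a number shares, and with 2 pairs the correlation of deviations between same-numbered libraries was 0.129, so the libraries were not treated as paired. With the replicate block, 184 genes had an adjusted p under 0.05, 3 of them in the partner lists (Xaf1, Lmna and Hspa5) and none a caspase or Xiap. With the block and the GC and length correction, edgeR called 0 genes in all and 0 in the lists, with 1502 at an unadjusted p under 0.05. Depth limits Casp4 and Casp12, which had at most 28 counts in a library.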
